A study of Mus musculus with 6 samples.

Results

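The members mmu-miR-192, mmu-miR-194 and mmu-miR-215, written here without the mouse prefix, are 3 microRNAs (miRNAs), short RNAs that pair with target mRNAs and lower their output, made from 2 small gene clusters. They were taken by exact reporter name from the 1078 mouse miRNA reporters on each array, and each of the 3 names matched 1 reporter. The arrays profiled total RNA of vascular smooth muscle cells (VSMCs) in culture, which in the artery contract and set its width. They came from C57BL/6 mice 8 weeks old, from the aorta in the abdomen, and had been passaged several times. Cultures treated with TNF-α, an inflammatory cytokine (n = 3), were compared with untreated control cultures (n = 3), all grown and harvested apart from each other per the study's design text. The sources used here give neither dose nor duration.

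The miR-192 and miR-194 clusters are best known from epithelial cells of the intestine, liver and kidney. Outside these tissues they are known for 2 signals. In human cells p53 raises them, and miR-192 and miR-215 in turn repress regulators of the cell cycle and of p53 itself. In mouse mesangial cells of the kidney TGF-β acts through miR-192, which represses Zeb2, a repressor of epithelial and collagen genes.

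The mature sequences are shown because they decide what the reporters can tell apart. They are RefSeq sequences on GRCm38.p6, matched for all 3 members under their current names with the suffix -5p, and the capitals mark the seed, bases 2 to 8, which selects targets.
miR-192: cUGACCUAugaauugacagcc
miR-215: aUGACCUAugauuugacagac
miR-194: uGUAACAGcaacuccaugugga

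miR-192 and miR-215 share the seed UGACCUA and 18 of 21 bases. Counted from 1 at the 5′ end and read from miR-192 to miR-215, they differ by C1A, A12U and C20A. The sources used here do not say whether the reporters separate sequences this close, so their values are not certain to be independent. No other of the 1679 mature mouse miRNA names in the RefSeq table had either seed, GUAACAG of miR-194 or UGACCUA.

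The genes lie in pairs on the plus strand. On chromosome 19, Mir194-2 (mature miR-194 at chr19:6264658-6264679) lies 115 bases before Mir192 (mature miR-192 at chr19:6264857-6264877), with no annotated gene overlapping the pair. On chromosome 1, Mir194-1 (mature miR-194 at chr1:185313325-185313346) lies 195 bases before Mir215 (mature miR-215 at chr1:185313610-185313630), within the span of Iars2, which encodes a mitochondrial isoleucyl-tRNA synthetase. Both copies give the same mature miR-194, so its reporter sums the 2 loci, whereas miR-192 and miR-215 each come from 1.

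TNF-α and control arrays differed in their background over all reporters. The background peak, the commonest density of an array, was 82.3 to 91.6 on TNF-α arrays and 68.3 to 76.5 on control arrays. The background limit is this peak plus 3 SD of the values below it, and 228 to 246 reporters exceeded it on TNF-α arrays against 284 to 326 on control arrays. These differences separated the sets of arrays completely, so an effect of TNF-α and a technical difference between the sets cannot be told apart. Of the markers of the labelled cell type, all 5 (miR-143, miR-145, miR-21, miR-221 and miR-222) exceeded the limit on every array, with a summed density of 57340 to 61264 on TNF-α arrays and 51000 to 59063 on control arrays.

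All 3 members were dim and lower on TNF-α arrays relative to the rest of the array, and 2 of the 3, miR-194 and miR-215, fell past an adjusted p of 0.05 in limma. Among all 642 tested reporters 63 fell (9.81%) and 146 passed in either direction (22.7%). Among the 277 tested reporters clear of background, those above the limit on at least 3 arrays, 44 fell (15.9%); of the members miR-192 and miR-194 are in this set and miR-215 is not. With 3 members, 2 calls say little against these shares. miR-194 had the largest estimate and the only call that held under most ways of processing the arrays. The calls of both were lost when the background was taken from the reporters next to them in the files, as given below. A change in the number of cells that express a miRNA cannot be told apart from a change in its amount per cell.

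miR-194, whose repression of cell migration genes is known from epithelial cells, had densities of 110, 105 and 84.0 on the TNF-α arrays, against 113, 146 and 123 on the control arrays. The groups did not overlap, as held for 47 of all 1078 reporters in this direction (4.36%), although the highest TNF-α array lay only just under the lowest control. The density exceeded the background limit on 0 of the 3 TNF-α arrays, where the limit was 118 to 132, and on all 3 control arrays, where it was 93.8 to 103. Its rank among the 1078 reporters, from brightest to dimmest, was 351 to 587 on TNF-α arrays and 197 to 243 on control arrays.

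On the normalized log2 scale miR-194 averaged 6.48 ± 0.12 with TNF-α and 7.03 ± 0.15 in controls (SD, n = 3 each). The change was -0.56 ± 0.10 (SE; 95% interval -0.78 to -0.33; adjusted p = 0.00819 by limma), the 14th lowest of the 642 estimates. This estimate rests on TNF-α values below the background limit, so no fold is given beyond a bound on the means, 1.10-fold lower with TNF-α. The bound sets the control mean against the lowest value above the limit on each TNF-α array. It has no interval and does not hold for each control array, since control replicate 1 was at 6.86. It also rests on the background of the whole array, and with the local background given below the groups overlapped. Exceeding the limit on no TNF-α array and all control arrays was shared by 30 of the 1078 reporters, and the reverse by 2. Of the 30, 12 fell, beside 63 of all 642 tested. The limit was itself higher on every TNF-α array, so these counts are no result about direction.

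miR-192, the abundant product of the chromosome 19 pair in intestine and kidney, had densities of 117, 125 and 122 on TNF-α arrays, against 136, 142 and 122 on control arrays. As scanned, the groups overlapped, since control replicate 3 lay within the TNF-α range. Measured above each array's background peak they did not: miR-192 stood 25.8, 32.9 and 39.9 above it on TNF-α arrays and 63.5, 65.3 and 53.9 above it on control arrays. That separation is common here, because 257 of 1078 reporters (23.8%) were lower with TNF-α without overlap by this measure.

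The limit was exceeded by miR-192 on 1 TNF-α array, replicate 3, and on all 3 control arrays. It averaged 6.82 ± 0.15 with TNF-α and 7.08 ± 0.03 in controls on the normalized log2 scale (SD, n = 3 each). The difference of -0.26 ± 0.09 (SE; 95% interval -0.46 to -0.07) did not pass over all reporters (adjusted p = 0.0599 by limma). No fold is given, because 2 of the 3 TNF-α arrays were below the limit. The log2 scale has 50 added to each corrected density, which understates changes of dim reporters. With median scaling the estimate was -0.066 (adjusted p = 0.638 by limma).

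miR-215, which shares its seed with miR-192 and is prominent in human colon, was the dimmest member. Its densities were 102, 74.8 and 80.8 on TNF-α arrays, against 89.6, 104 and 97.3 on control arrays. The groups overlapped, with TNF-α replicate 1 above 2 of the 3 controls. No TNF-α array and 2 control arrays exceeded the limit, control replicate 2 by about 1 unit of density (104.0 against 102.9).

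On the normalized log2 scale miR-215 averaged 6.26 ± 0.22 with TNF-α and 6.66 ± 0.12 in controls (SD, n = 3 each), without overlap, as did 126 of the 642 tested reporters in this direction (19.6%). The change of -0.40 ± 0.12 (SE; 95% interval -0.67 to -0.13) passed narrowly (adjusted p = 0.0430 by limma). No fold is given, because the bound was under 1. The call was lost without TNF-α replicates 2 (-0.29) or 3 (-0.42) and without control replicates 1 (-0.46), 2 (-0.38) or 3 (-0.36), and with the peak taken on a linear scale only 1 control array exceeded the limit.

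**Figure D1:**
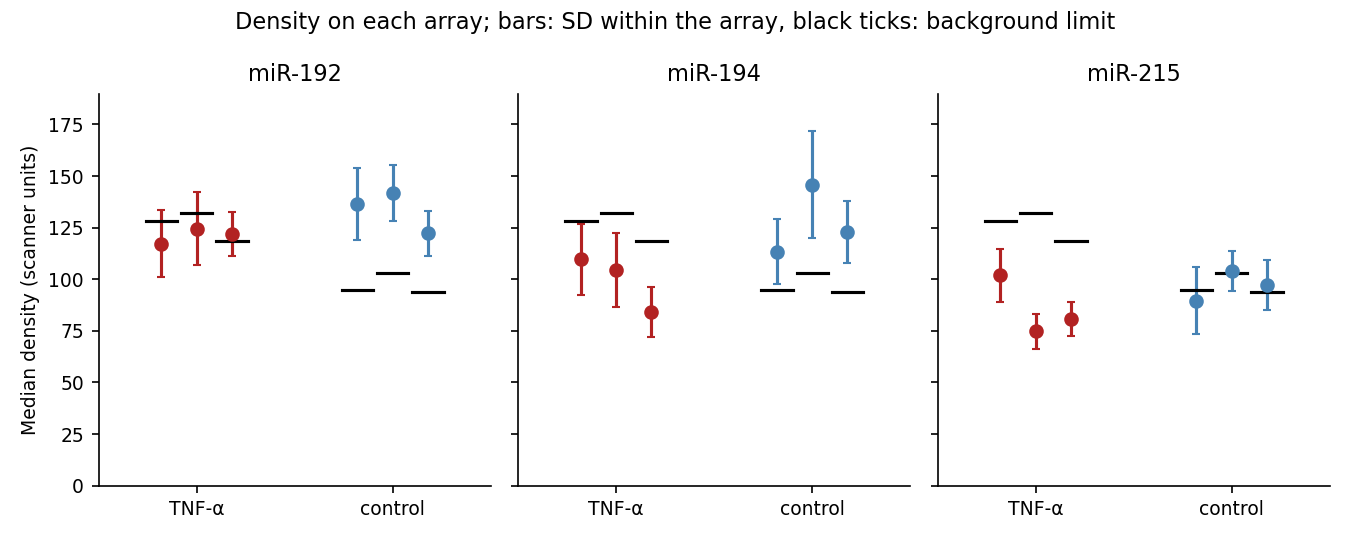
Median density of miR-192, miR-194 and miR-215 on each TNF-α array (red) and control array (blue), in scanner units, with replicates 1 to 3 from left to right; bars are the deposited SD within the array and black ticks the background limit of that array. miR-194 lies below the limit on the 3 TNF-α arrays and above it on the 3 control arrays, and miR-192 exceeds it on 1 TNF-α array.

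The deposited SD within an array bears on these small gaps. For miR-194 it was 12.1 to 17.8 on TNF-α arrays and 14.9 to 25.9 on control arrays. For miR-215 it was 8.08 to 12.9 on TNF-α arrays and 9.64 to 16.3 on control arrays. The smallest gap between the groups for miR-194, 110 on TNF-α replicate 1 against 113 on control replicate 1, was smaller than either SD. The sources used here do not say whether this spread is over pixels or repeated spots.

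The members were also compared with each other on the same array. miR-194 minus miR-192 was -0.10, -0.28 and -0.63 on TNF-α arrays and -0.19, 0.04 and 0.01 on control arrays, in log2 units. The difference of -0.29 between groups had a 95% interval of -0.77 to 0.18 (exact permutation test, two-sided, p = 0.2, adjusted p = 0.5 over 3 pairs). For miR-215 minus miR-192 the difference was -0.14 (interval -0.64 to 0.36, exact p = 0.5), and for miR-194 minus miR-215 it was -0.15 (interval -0.54 to 0.23, exact p = 0.4). With 3 arrays a group the smallest p is 0.1. No pair differed detectably in its change, and the intervals do not show that the 3 changed alike.

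The other arms of the 4 hairpins, which usually decay when the main arm is kept, were all on the arrays and exceeded the limit on no array. Of these, 3 were tested and 0 passed in limma, beside 146 of all 642 tested reporters that passed in either direction (22.7%). miR-215* lay at 92.7, 68.2 and 75.2 on TNF-α arrays, against 79.5, 94.3 and 81.7 on control arrays. Its order over the arrays was close to that of miR-215, with TNF-α replicate 2 lowest and TNF-α replicate 1 and control replicate 2 highest. It also directly follows miR-215 in the strip of the file order described below, so this likeness is not separate from that of the neighbours. Its estimate of -0.34 ± 0.11 (adjusted p = 0.0528 by limma) was close to that of miR-215, although no signal above background was seen for this arm.

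miR-192* changed by -0.22 ± 0.08 (adjusted p = 0.0839), and miR-194-2*, from the chromosome 19 copy, by -0.02 ± 0.09 (adjusted p = 0.891). miR-194-1*, from the chromosome 1 copy, was too dim to be tested, at 58.7, 85.1 and 61.7 on TNF-α arrays and 73.7, 77.3 and 78.0 on control arrays. Sequences of the last 2 arms, with the seed in capitals, differ by G8A, U19C, C20U and G22C from miR-194-2* to miR-194-1*, and are shown because only these arms could tell the miR-194 loci apart.
miR-194-2* (chr19:6264694-6264715): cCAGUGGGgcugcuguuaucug
miR-194-1* (chr1:185313360-185313381): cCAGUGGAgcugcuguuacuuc
At these densities neither arm gave a value above background from which the share of each locus could be read.

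**Figure D2:**
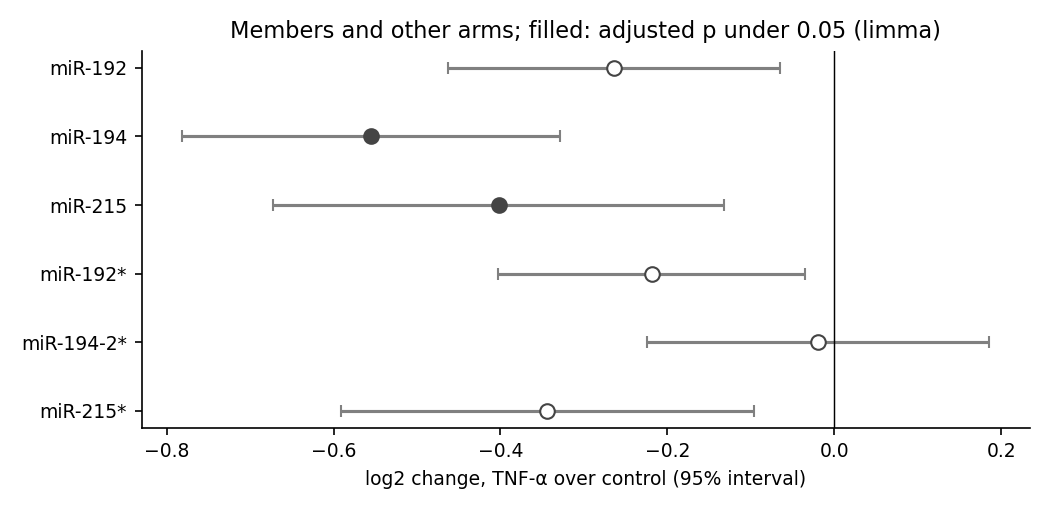
Change of the 3 members and of the 3 tested other arms on the log2 scale, TNF-α over control, with 95% intervals from limma; filled points passed an adjusted p of 0.05. miR-194 (-0.56) and miR-215 (-0.40) are filled, and the arm miR-215*, at background on every array, lies at -0.34.

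Dim reporters listed near each other in the files deviated together. All arrays list the reporters in the same order, in 122 rows of 8 or 9 names. The same place in successive rows makes a strip, whose reporters have neighbouring names except across rows 18 and 19. There the places shift, so that miR-149 in place 1 is followed by miR-100. The members lie in later rows. The sources used here do not say whether this order is the layout of the slide. Among the 707 reporters below the limit on all arrays, the deviation of a reporter from its own mean and from the array's level correlated at 0.64 with that of the next row of the strip (481 pairs over 6 arrays) and at 0.30 with that of the reporter 6 rows away (451 pairs). These correlations describe reporters that share arrays and are not a test. The dim neighbours used below include the other arm of a hairpin of each member: miR-192*, miR-194-1* and miR-215*.

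miR-194 is in row 120 of 122, and its strip was low on TNF-α arrays. The 4 dim reporters within 4 rows of it had a median of 79.7, 70.5 and 61.8 on TNF-α replicates 1 to 3, against 80.5, 81.7 and 80.5 on control replicates 1 to 3, while the background peak of the whole array was higher with TNF-α. TNF-α replicate 3, on which miR-194 was dimmest, was the lowest of the 6 arrays for 4 of its 6 neighbours. miR-193b* (-0.65) and miR-1940 (-0.64), the entries directly before and after miR-194, both fell in the same fit.

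Set against these neighbours, miR-194 stood 30.0, 34.1 and 22.3 above them on TNF-α arrays and 33.0, 64.2 and 42.5 on control arrays. It was brighter than its surroundings in both groups, and the groups overlapped (exact permutation test, two-sided, p = 0.2, n = 3 each). With such a local background subtracted from every reporter, miR-194 changed by -0.28 ± 0.12 and was not called (adjusted p = 0.203 by limma). For 14 reporters with fewer than 2 dim neighbours, the peak of the whole array was used instead.

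miR-215 lay close to its strip. Of its 8 neighbours, 5 had their lowest value on TNF-α replicate 2, as miR-215 did. Above the median of its 5 dim neighbours it stood only 9.30, 6.78 and 0.287 on TNF-α arrays and 10.1, 13.8 and 15.5 on control arrays. These groups did not overlap, as in 161 of 1078 reporters in this direction (14.9%), and with the local background miR-215 changed by -0.20 ± 0.07 (adjusted p = 0.156 by limma).

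Of the 8 neighbours of miR-192, 7 were tested, all 7 with estimates below 0, and 2 fell, miR-1927 (-0.25, adjusted p = 0.0478 by limma) and miR-1928 (-0.38, adjusted p = 0.0448 by limma). As scanned, its 4 dim neighbours had a median of 83.9, 92.8 and 83.6 on TNF-α arrays and 83.3, 91.2 and 81.5 on control arrays, whereas the background peak of the whole array was higher on TNF-α arrays. miR-192 stood 33.4, 31.8 and 38.5 above these neighbours with TNF-α and 53.1, 50.6 and 40.7 in controls. The groups did not overlap in this measure, with 34.5 ± 3.52 against 48.1 ± 6.53 (SD, n = 3 each; exact permutation test, two-sided, p = 0.1, the smallest possible). In the fit with the local background its change was -0.20 ± 0.08 (adjusted p = 0.188 by limma).

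**Figure D3:**
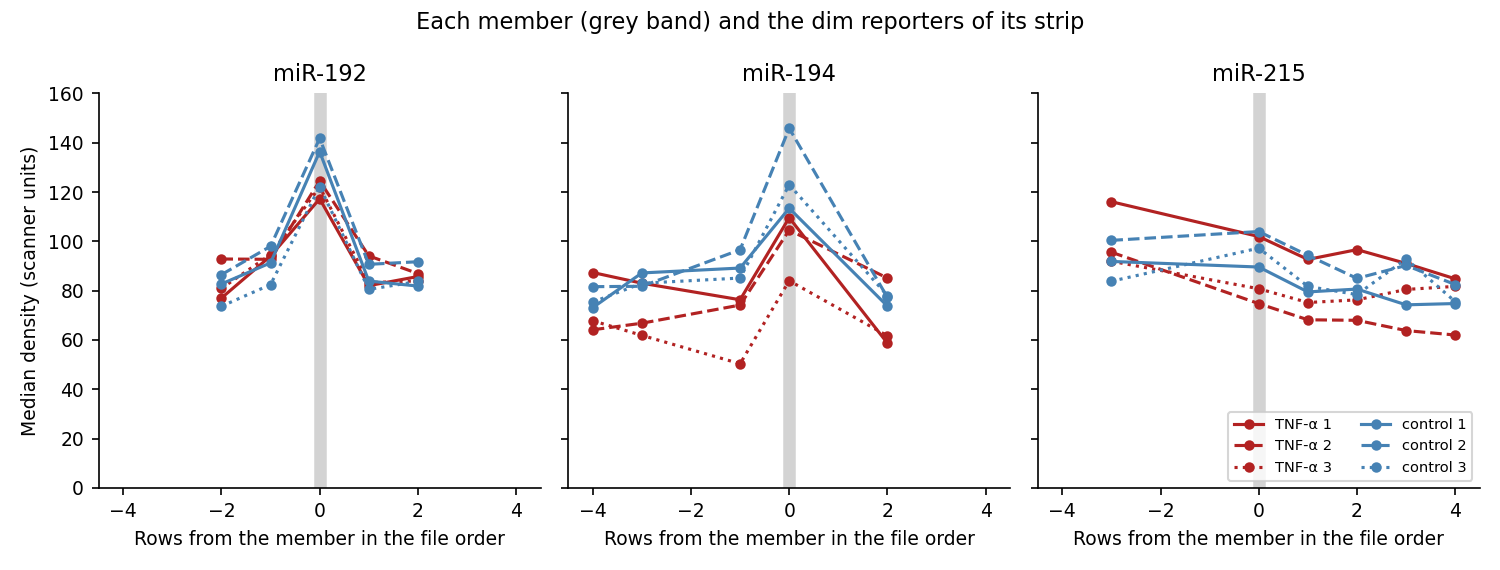
Median density, in scanner units, of each member (grey band, row 0) and of the reporters of its strip that were below the limit on all arrays, by rows from the member in the file order, for TNF-α arrays (red) and control arrays (blue). miR-192 and miR-194 stand above their neighbours on every array, miR-215 hardly does, and the neighbours of miR-194 are lowest on TNF-α replicate 3 at 3 rows before and 1 row before it.

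The strength of each call also moved with the scaling. Without normalization the median of all tested reporters was 0.14 and with scaling to the median of bright reporters 0.25, against 0.01 with quantile normalization. Relative to that median, miR-194 was at -0.54, miR-215 at -0.37 and miR-192 at -0.31 without normalization. Scaling to the median of bright reporters gives the same values by construction, because it shifts all reporters of an array alike. The authors' deposited table of processed intensities gave -0.92 for miR-194 (adjusted p = 0.00364 by limma) and -0.43 for miR-192 (adjusted p = 0.00622 by limma), from a fit in which the median was -0.12. Falls were common in that fit, with 81 of the 285 tested reporters, against 63 of 642 with quantile normalization. In that table miR-215 was listed at the floor of 0.01 on TNF-α replicates 2 and 3 and was too dim to be tested.

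**Figure D4:**
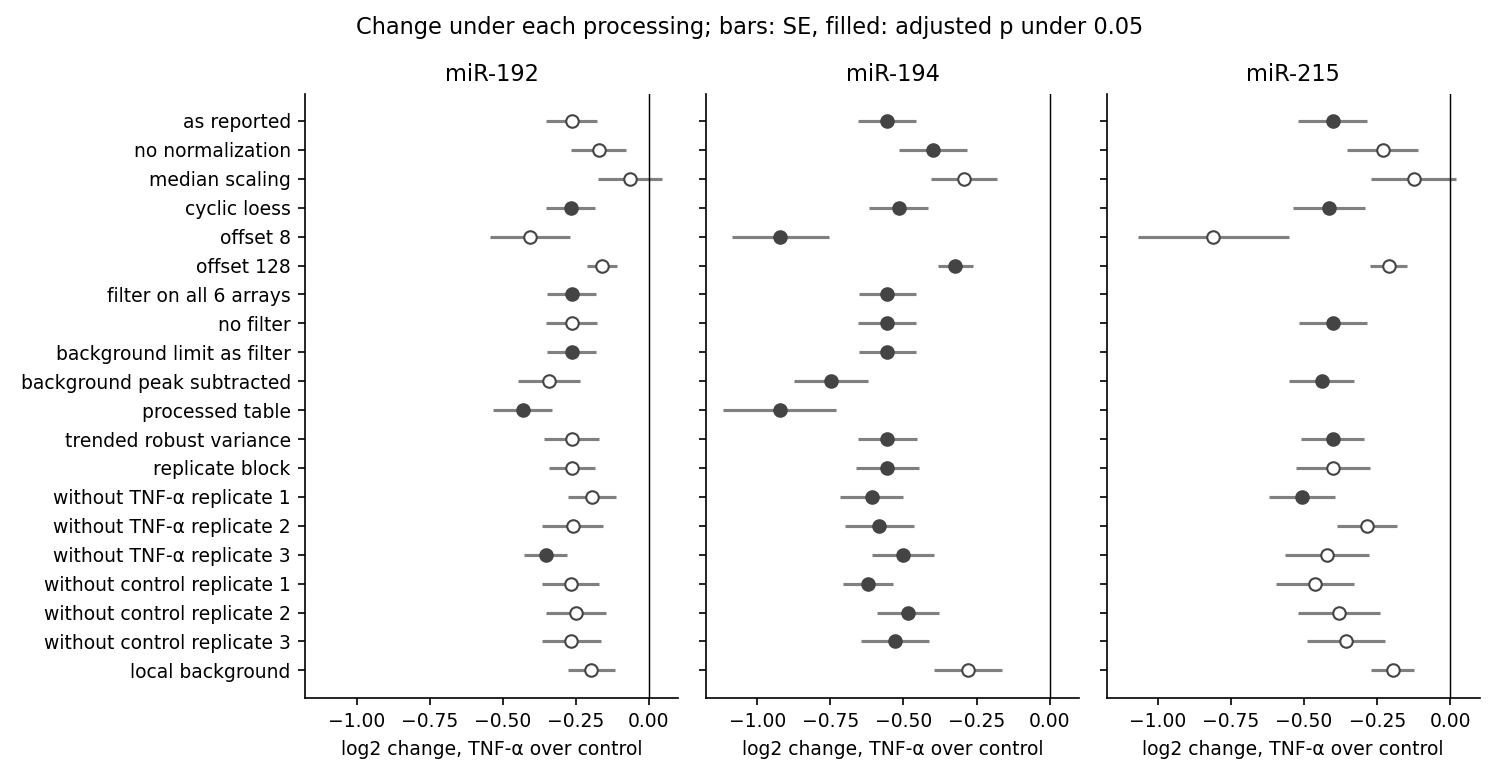
Change of each member on the log2 scale, TNF-α over control, under each way of processing, with SE bars and filled points where the adjusted p in limma was under 0.05. Every estimate is below 0, miR-194 is called except with median scaling and local background, and no point is drawn where a member was not tested.

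Other miRNAs linked to p53 and TGF-β were looked up from lists of known responders. Among 11 other miRNAs known to respond to p53, 8 were tested, and 1 rose and 0 fell in limma. Over all 642 tested reporters 83 rose (12.9%), so 1 of 8 is near the share of all reporters and is no result about the list. The one that rose was miR-34a (0.55 ± 0.07, adjusted p = 0.00227), a direct p53 target, at a mean density of 938 with TNF-α and 785 in controls. The median change of the list was 0.11, beside 0.01 for all tested reporters. miR-107 (0.33 ± 0.11, adjusted p = 0.0660) did not pass.

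Among 13 miRNAs known to respond to TGF-β, which share miR-143 and miR-145 with the p53 list, 10 were tested. Of these, 4 rose and 1 fell, with a median of 0.06, beside 12.9% of all tested reporters that rose and 9.81% that fell. The list does not separate miRNAs that TGF-β raises from those it lowers, so these counts give no direction of a TGF-β response. Those that rose were miR-29b (0.60), which represses collagen mRNAs, its relative miR-29c (0.43), miR-199a-5p (0.42) and miR-377 (0.50), the last above background on 1 TNF-α array only. The member that fell, miR-155 (-0.27), exceeded the limit on no array. miR-216a and miR-217, which lie downstream of miR-192 in mouse mesangial cells, exceeded the limit on no array, and miR-216a* and miR-216a were among the dim neighbours of miR-215.

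Markers of epithelium, gut and liver were at background. None of the 10 (among them the miR-200 family, miR-375 and liver miR-122) exceeded the limit on any array, and their summed density was 773 to 887 on TNF-α arrays and 735 to 780 on control arrays. Of the 3 tested, 0 rose and 1 fell in limma, beside 12.9% of all tested reporters that rose and 9.81% that fell. The one that fell was miR-122 (-0.26 ± 0.06, adjusted p = 0.0225), without exceeding the limit. On the same control arrays miR-192 and miR-194 did exceed it.

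Of the remaining markers, 1 of 2 endothelial ones (miR-126-3p) was clear of background, with summed densities of 193 to 233 on TNF-α arrays and 185 to 219 on control arrays. Of 5 blood cell markers none was clear of background, with sums of 384 to 445 on TNF-α arrays and 361 to 392 on control arrays. Of 6 striated muscle markers, 4 matched a reporter by exact name. Of these 1 was clear of background, miR-206, which fell (-0.49, adjusted p = 0.00339 by limma). The sums of the 4 were 433 to 517 on TNF-α arrays and 476 to 526 on control arrays. The listed miR-1 and miR-208a are on the arrays under longer names. miR-1a and miR-208a-3p exceeded the limit on no array. miR-208a-5p did on 2 TNF-α and 3 control arrays and was not called (-0.10, adjusted p = 0.389 by limma).

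Reporters with patterns most like those of the members were sought among the 275 other tested reporters clear of background, by Pearson's r over the 6 arrays. For miR-194 they were miR-2861 (r = 0.97), miR-494 (0.97) and miR-1224 (0.97), each of which fell. For miR-192 they were miR-1896 (0.96), miR-98 (0.93) and miR-199a-3p (0.93), and for miR-215 miR-423-5p (0.97), miR-1934* (0.94) and miR-3072* (0.93). The 6 arrays share the difference between the groups, so these values describe likeness only.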

How the data were processed

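Per the file headers, the authors deposited 1 median density and 1 SD per reporter and array, which are intensities on a linear scale, with no background subtracted as the values show. Per the labels, total RNA was tailed, tagged and stained with Cy5. The scanner is not given in the sources used here. The authors also deposited processed intensities, floored at 0.01, whose scaling between arrays is unknown. Replicate numbers come from the titles, because the descriptions give number 3 to 2 TNF-α cultures.

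After normexp correction, 50 was added to each density, and log2 values were quantile normalized between arrays (limma 3.58.1, R 4.3.3). Reporters at a corrected density of at least 32 on at least 3 arrays were tested by group with limma (two-sided; Benjamini-Hochberg over the 642 tested, threshold 0.05). The number of arrays limits the precision. Named miRNAs are the members, their other arms, up to 4 members per list by smallest p, the 3 most correlated reporters per member, and, chosen after their values were seen, file neighbours and other list members. The members and lists were chosen with earlier results of these data known. The steps were run on simulated data in which only reporters brighter than the members were changed, so that run does not cover changes in reporters this dim. Alternatives were other scalings, offsets, filters, variance models, the processed table with 32 added, a replicate block and each array left out. A local background from the same strip of the file order was added after seeing the data.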

Additional observations from a re-analysis of the deposited data

How the results depend on the processing

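Every estimate of the 3 members stayed below 0 under all alternatives run. miR-192 passed with cyclic loess (-0.27), with the filter on all 6 arrays or at the background limit (-0.26 each) and in the processed table (-0.43), was -0.066 with median scaling, -0.17 without normalization and -0.16 with the largest offset tried, none of them called, and ranged from -0.35 (called, without TNF-α replicate 3) to -0.19 with single arrays left out. miR-194 lost its call with median scaling (-0.29, adjusted p = 0.0502) and the local background (-0.28), and ranged from -0.62 to -0.48 with single arrays left out. For miR-215 the call did not survive dropping the normalization (-0.23), median scaling (-0.13), an offset of 8 (-0.81), the largest offset tried (-0.21), the replicate block (-0.40, adjusted p = 0.0888) or the local background (-0.20), and its estimate ranged from -0.51 to -0.29 with single arrays left out. Same-numbered arrays deviated together at correlations of 0.04, 0.02 and 0.15, which shows little shared deviation but cannot tell whether the numbers pair the cultures. The replicate block changed the call of no other member. At the filter of 100 no member was tested, and slide was not fitted as a block, since the files used here name none.

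The count of reporters that rose was 83 of the 642 tested. With the same 642 tested it ranged from 45 with the local background to 262 with median scaling. It was 163 without normalization and 55 with the replicate block. Other filters changed the number tested, so their counts cannot be set against 83 alone. Rises were 38 of 189 with the filter at 100, 50 of 339 with the filter on all 6 arrays and 51 of 277 at the background limit. The authors' processed intensities gave 39 of 285. With single arrays left out, 37 to 56 rose, of 500 to 626 tested. The count that fell was 63 of the 642 tested. With the same 642 tested it ranged from 29 with median scaling to 74 with a trended robust variance, and was 41 without normalization. Falls were 39 of 189 with the filter at 100, 58 of 339 with the filter on all 6 arrays and 55 of 277 at the background limit. The authors' processed intensities gave 81 of 285, and the fit without a filter 78 of 1078. With single arrays left out, 26 to 47 fell, of 500 to 626 tested. Between members, miR-194 minus miR-192 (-0.29) was -0.52 with an offset of 8 and -0.080 with the local background, and -0.42 to -0.15 with single arrays left out, the smallest without TNF-α replicate 3. miR-215 minus miR-192 (-0.14) was -0.40 with an offset of 8 and 0.00091 with the local background, and -0.31 (without TNF-α replicate 1) to -0.024 (without TNF-α replicate 2) with single arrays left out. The cause of these shifts was not tested. All 3 members lie near background, which limits what these densities can show.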

Other observations

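The likeness along the file order was not particular to the strips of the members. Over all 707 reporters below the background limit on every array, the log2 ratio of mean density, TNF-α over control, correlated at 0.72 between successive rows of a strip (481 pairs) and at 0.32 at 6 rows (451 pairs), as a description of these 6 arrays. In the last 8 rows, which hold miR-194, the 49 such reporters had a median density of 94.4, 72.7 and 62.1 on TNF-α replicates 1 to 3, against 72.1, 78.4 and 67.8 on control replicates 1 to 3. Over all rows the medians were 90.0, 89.8 and 79.4 on TNF-α arrays and 73.4, 76.2 and 67.6 on control arrays.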
